A study of Mus musculus with 4 samples.

Results

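The liver's response to a high-fat diet was compared between mice with and without hepatocyte Myd88, gene by gene. For each gene the diet difference (high-fat minus control, log2) of wild type was subtracted from that of the knockout, and the result is called here the difference of differences. It is positive where the high-fat value stood higher relative to control in the knockout, and negative where it stood lower. Genes were probe sets (groups of array probes) with 1 gene symbol, each represented by its brightest probe set on average, which gave 22180 genes from 41345 probe sets. A mean at or above the 40th percentile was then asked for, a log2 value of 3.47, and 13308 genes passed.

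Total liver RNA of C57Bl6 mice aged 16 weeks was hybridised to 4 Affymetrix arrays, 1 per group. Wild-type mice carried floxed Myd88 (MyD88 lox/lox) and ate a control diet with 9.4% fat (WT-CT) or a high-fat diet with 60% fat (WT-HFD). Knockout mice carried the same floxed gene and a Cre recombinase under the albumin promoter (ALB Cre MyD88 lox/lox), on the control (LKO-CT) or the high-fat diet (LKO-HFD). Albumin-Cre acts in hepatocytes, so Kupffer, endothelial and stellate cells keep Myd88, and both genotypes share the floxed alleles. RNA of 4 to 5 mice was pooled into each array, with mice selected by RNA quality. With 1 array per group there is no spread between replicates, no standard error and no test for any value below. All 4 arrays enter each difference of differences, so the error of every array adds to it and a 2-fold value is reached more easily than in a comparison of 2 arrays.

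Myd88 is the adaptor that carries signals from most Toll-like receptors and from the interleukin-1 receptor family to NF-kappaB. In hepatocytes, interleukin-1, interleukin-6 and bacterial products raise the acute phase proteins, secreted proteins that bind lipid, iron or heme and mark inflammation. The same signals are known to lower many cytochrome P450 genes, which are otherwise driven by the nuclear receptors CAR, PXR and PPARalpha.

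Myd88 itself read 6.10 on WT-CT, 6.44 on WT-HFD, 5.91 on LKO-CT and 6.23 on LKO-HFD. The knockout minus wild-type gap was -0.19 on the control diet and -0.21 on the high-fat diet. The difference of differences was -0.02, and it lay on either side of 0, from -0.14 to 0.01, under other scalings and probe set rules. Where the probes lie relative to the floxed part was not analysed here, so this level is no check of the deletion. Liver markers were high on every array: the 6 hepatocyte markers averaged 11.77, 11.74, 11.77 and 11.71 in the same array order, and Alb read 13.64 to 13.70. Xist read 3.07 to 3.23 and the Y-linked gene Eif2s3y 7.67 to 8.23 on the 4 arrays, so every pool held Y-linked RNA and little Xist. In whole tissue, fewer cells of a type and less RNA per cell cannot be told apart.

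Inflammation genes were among those with the most negative values, and drug and fatty acid metabolism genes among those with the most positive. Of the 13308 genes, 162 (1.22%) had a difference of differences of 2-fold or more, 88 positive (0.661%) and 74 negative (0.556%). The absolute value had a median of 0.20 over all genes, a 95th percentile of 0.68 and a 99th percentile of 1.05. Over all genes the median was 0.04; 55.9% lay above 0 and 44.1% below. The split between positive and negative genes moved with the scaling of the arrays. It was 101 to 68 after median centring, 68 to 85 after a further quantile normalisation and 70 to 85 after cyclic loess, which put the median of all genes at 0.07, 0.00 and 0.01.

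In 4 genes (0.0301%) the diet difference was 2-fold or more in both genotypes and ran in opposite directions: Saa2, Moxd1, Orm2 and Cyp2b9. Among the 88 positive genes, 71 were lower on the high-fat array in wild type and higher in the knockout, 12 were lower in both genotypes with the larger difference in wild type, and 4 were higher in both with the larger difference in the knockout. The remaining positive gene had a knockout difference of 0. Among the 74 negative genes, 52 were higher with the diet in wild type and lower in the knockout, 16 were higher in both and 6 were lower in both. For 102 of the 162 genes (63.0%) the wild-type diet difference was the larger one, against 48.3% of all genes. The genotype gap was larger on the control diet than on the high-fat diet for 88 of the 162 (54.3%), against 43.6% of all genes.

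**Figure D1:**
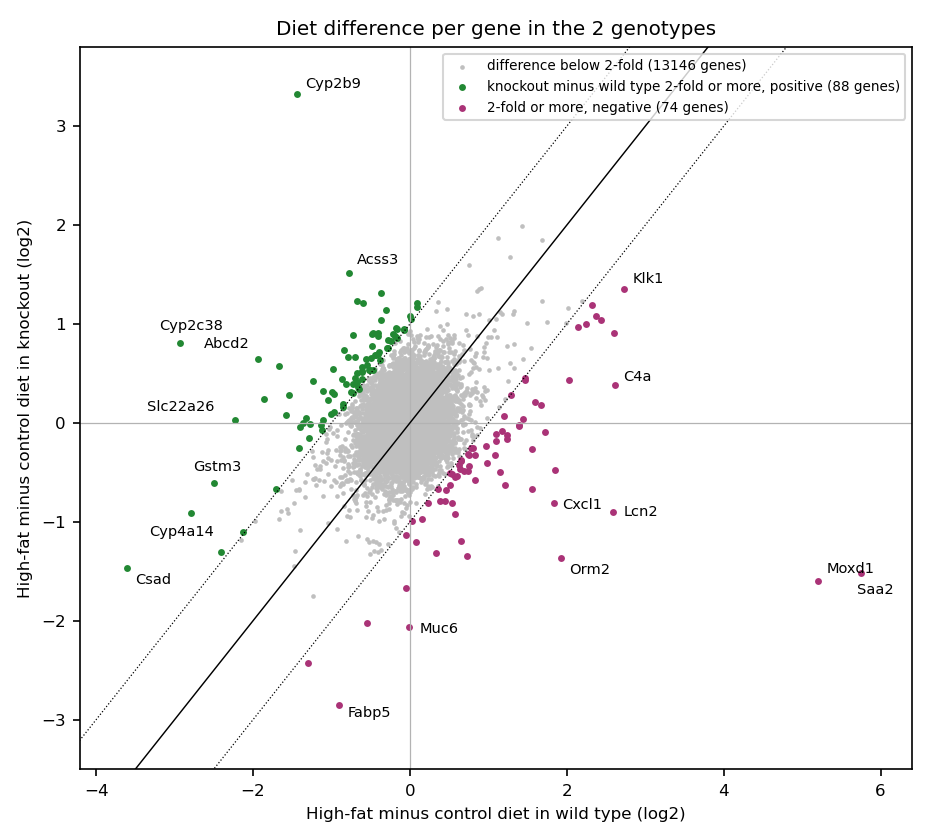
Each point is 1 of the 13308 genes, placed by its diet difference in wild type (horizontal, log2) and in the knockout (vertical, log2); the solid line marks equal differences and the dotted lines a 2-fold difference between them. Saa2 and Moxd1 lie far to the right at 5.76 and 5.20 in wild type with knockout values below 0, and Cyp2b9 stands alone at the top with 3.32 in the knockout.

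A single array set many of these values. An array was taken to stand apart where it was the highest or the lowest and its gap to the nearest other array was at least the range of the other 3. This held for 102 of the 162 genes (63.0%), against 52.5% of all genes. The array was WT-CT for 46 of them (28.4%, against 12.6% of all genes), WT-HFD for 18 (11.1%, against 12.4%), LKO-CT for 14 (8.64%, against 9.07%) and LKO-HFD for 24 (14.8%, against 18.4%). WT-CT was low for 26 genes, all negative, and high for 20, all positive, as the sign of that array in the subtraction makes it. When the WT-CT value was moved to the nearest other array, 98 of the 162 genes (60.5%) stayed at 2-fold or more, and the same step on WT-HFD, LKO-CT and LKO-HFD left 111, 132 and 119. The wild-type control array therefore carried more of these values than any other array, and each gene below is given with the array that stood apart.

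**Figure D2:**
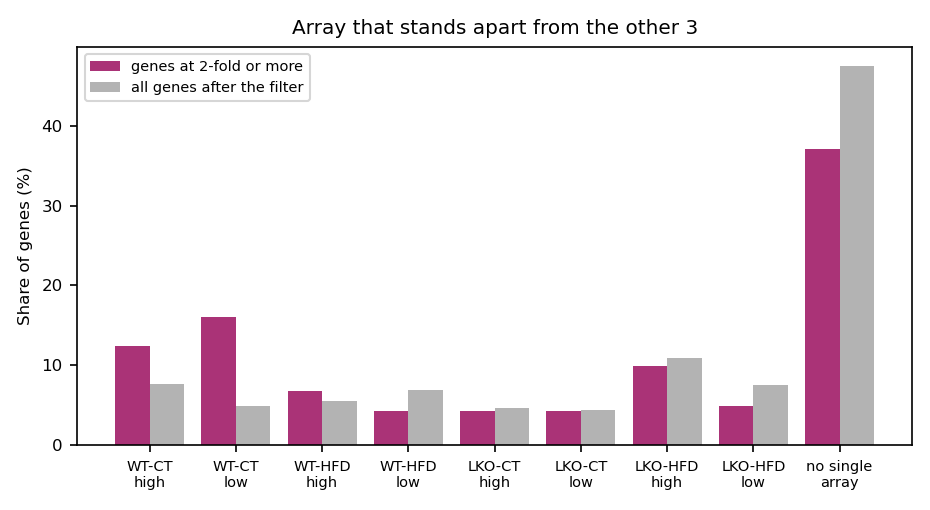
Bars give the share (%) of genes for which 1 array stood apart, high or low, among the 162 genes at 2-fold or more (dark) and among all 13308 genes (grey). WT-CT low holds 16.0% of the genes at 2-fold or more against 4.89% of all genes, and WT-CT high 12.3% against 7.66%.

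Saa2, an acute phase gene, had the lowest value of all genes, and the acute phase list was largely negative. Of the 27 measured genes of this list, 23 were negative, against 44.1% of all genes. At 2-fold or more 10 were negative, against 0.556% of all genes, and 1 was positive. The list median was -0.60, against 0.04 over all genes. The median diet difference was 0.24 in wild type and -0.23 in the knockout, and the median genotype gap was 0.48 on the control diet and 0.10 on the high-fat diet. WT-CT stood apart as the low array for 9 of the 27, and LKO-CT as the high array for 7.

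Saa2, a serum amyloid A apolipoprotein carried on high-density lipoprotein in inflammation, read 4.97 on WT-CT, 10.73 on WT-HFD, 12.34 on LKO-CT and 10.83 on LKO-HFD. Wild type on control diet was low and the other 3 arrays were high, within 1.61 of each other. The diet difference was therefore 5.76 in wild type and -1.52 in the knockout, and the difference of differences was -7.27. Saa3, the serum amyloid form made outside the hepatocyte as well, read 5.46, 7.49, 8.50 and 8.93 in the same order. It was higher with the diet in both genotypes, more so in wild type, which gave -1.60.

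Lcn2, lipocalin 2, which binds bacterial iron carriers, read 4.97, 7.56, 9.27 and 8.37 in the order WT-CT, WT-HFD, LKO-CT and LKO-HFD. Orm2, an orosomucoid (alpha-1-acid glycoprotein), read 6.51, 8.44, 9.83 and 8.47. Both were lowest on WT-CT and highest on LKO-CT, and the high-fat arrays lay between, so the diet differences ran in opposite directions. The differences of differences were -3.48 for Lcn2 and -3.28 for Orm2. The neighbouring Orm3 read 3.49, 4.69, 3.75 and 3.82 and was high on WT-HFD only, for -1.13. Orm1 read 11.07, 11.26, 11.71 and 11.20, for -0.71.

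The metallothioneins, small zinc-binding proteins that acute phase signals raise, had the Saa2 pattern. Mt2 read 8.91, 10.47, 11.61 and 10.94 and Mt1 7.01, 8.73, 9.42 and 9.33, in the order WT-CT, WT-HFD, LKO-CT and LKO-HFD. WT-CT was the low array for both, and the differences of differences were -2.23 and -1.82. Apcs, serum amyloid P component, had another pattern: it read 8.16, 7.62, 10.16 and 8.13, with LKO-CT high and the other 3 arrays close, for -1.48. Lrg1, a leucine-rich glycoprotein of the acute phase, read 8.66, 9.24, 9.78 and 8.85, with no array standing apart, for -1.50. Serpina3n, a protease inhibitor, read 11.05, 11.80, 12.37 and 11.93, for -1.19.

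Other acute phase proteins had smaller values, most of the same sign. Haptoglobin (Hp) and hemopexin (Hpx), which clear free hemoglobin and heme, had -0.60 each, and Steap4, a metal reductase, had -0.98. The fibrinogen chains Fga, Fgb and Fgg had -0.34, -0.15 and -0.07. Without the 9 serum amyloid, orosomucoid, lipocalin and metallothionein genes, a subset chosen after the values were seen, 14 of the other 18 measured genes were negative and their median was -0.28. The exceptions with positive values were Cp and Crp at 0.10 each, Hamp at 0.17 and Hamp2 at 1.27. Hamp encodes hepcidin, the hormone that lowers iron export, and Hamp2 is its close copy. Hamp2 was lowest on WT-HFD at 7.85 and highest on LKO-HFD at 8.78.

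Promoter windows from RefSeq (GRCm38.p6, 250 bases before to 50 after the gene start) are shown for 4 of the lowest acute phase and chemokine genes, because these genes had like patterns over the arrays. They were searched on both strands for GGNNNTTCC (NF-kappaB-like), TTCNNNGAA (STAT-like) and TTGCNNAA (C/EBP-like), and matches are in capitals. The windows are Saa2 at chr7:46751583-46751882 (+ strand), Lcn2 at chr2:32387690-32387989 (- strand), Orm2 at chr4:63362199-63362498 (+ strand) and Cxcl1 at chr5:90890995-90891294 (+ strand).
Saa2: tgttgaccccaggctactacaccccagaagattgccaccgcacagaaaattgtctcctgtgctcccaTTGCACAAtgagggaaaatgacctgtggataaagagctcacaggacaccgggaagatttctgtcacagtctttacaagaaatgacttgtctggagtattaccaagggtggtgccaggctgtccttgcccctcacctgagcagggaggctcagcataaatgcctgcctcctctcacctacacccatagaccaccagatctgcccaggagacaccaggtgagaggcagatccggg
Lcn2: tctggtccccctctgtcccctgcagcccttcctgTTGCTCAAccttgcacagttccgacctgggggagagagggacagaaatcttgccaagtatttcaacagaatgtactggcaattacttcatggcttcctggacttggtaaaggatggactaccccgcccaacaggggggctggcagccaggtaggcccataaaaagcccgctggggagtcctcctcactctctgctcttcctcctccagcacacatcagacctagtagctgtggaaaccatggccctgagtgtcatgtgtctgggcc
Orm2: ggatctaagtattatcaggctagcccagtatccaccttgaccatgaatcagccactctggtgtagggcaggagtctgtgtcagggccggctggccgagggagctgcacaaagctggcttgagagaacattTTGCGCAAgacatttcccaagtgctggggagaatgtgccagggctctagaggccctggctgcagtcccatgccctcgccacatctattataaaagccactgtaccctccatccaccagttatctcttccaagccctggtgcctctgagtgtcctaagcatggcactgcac
Cxcl1: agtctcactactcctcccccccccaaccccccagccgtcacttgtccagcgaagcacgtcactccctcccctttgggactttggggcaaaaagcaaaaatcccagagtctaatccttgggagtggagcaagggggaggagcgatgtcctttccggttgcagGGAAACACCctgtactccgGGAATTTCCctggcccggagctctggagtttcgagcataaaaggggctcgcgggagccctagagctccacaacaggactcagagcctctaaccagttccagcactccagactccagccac
The windows of Saa2, Lcn2 and Orm2 each held 1 C/EBP-like match, and Cxcl1 held 2 NF-kappaB-like matches.

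Over the acute phase list, 23 genes had 24 windows. A C/EBP-like match was in 13 of them (54.2%, against 10.8% of all 32851 windows), a STAT-like match in 7 (29.2%, against 8.30%) and an NF-kappaB-like match in 6 (against 18.5%). The 64 windows of the negative genes at 2-fold or more held these matches in 21.9%, 12.5% and 17.2%, and the 84 windows of the positive genes in 17.9%, 8.33% and 14.3%. The letters of a match do not show that a factor binds there.

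Most signalling genes upstream of the acute phase had small values. Cxcl1, a neutrophil chemokine, read 4.64 on WT-CT, 6.47 on WT-HFD, 6.92 on LKO-CT and 6.11 on LKO-HFD. WT-CT was again the low array, and the difference of differences was -2.64. It was the single gene of the 25 measured chemokine, cytokine and NF-kappaB feedback genes at 2-fold or more, and the list split into 11 positive and 14 negative with a median of -0.07. None of the 23 measured Toll-like and interleukin-1 receptor signalling genes reached 2-fold, with values from -0.74 to 0.42 and a median of 0.09. Of the 14 interleukin-6 and STAT3 genes, Bcl3, an NF-kappaB cofactor, had -1.18 and Socs3, the feedback inhibitor of STAT3, read 4.36, 4.35, 4.81 and 4.20. The 28 interferon stimulated genes split into 13 positive and 15 negative, with a median of -0.02 and none at 2-fold.

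Complement and coagulation genes, largely made by hepatocytes, leaned the same way as the acute phase list with small values. Of 35 measured genes, 30 were negative, against 44.1% of all genes, and the median was -0.16. Only C4a, a close copy of the complement gene C4b, was at 2-fold or more. The gene tables used here class C4a as a transcribed pseudogene, and whether its probes also read C4b was not tested. C4a read 5.38 on WT-CT, 7.99 on WT-HFD, 6.47 on LKO-CT and 6.85 on LKO-HFD, for -2.23, and C4b read 10.24, 10.59, 10.53 and 10.09, for -0.78. The 2 wild-type arrays were the lowest and the highest for C4a, and the knockout arrays lay between. The early components C1s1, C1ra and C2 had -0.91, -0.76 and -0.75, but C1s1 had -0.12 when all its probe sets were averaged. The 14 antigen presentation genes also leaned negative: 11 were below 0, against 44.1% of all genes, with a median of -0.30. The class II chains H2-Aa and H2-Ab1 had -0.70 each. The only one of the 14 at 2-fold or more was H2-Q4, a class I gene, with 1.18. Another probe set of H2-Q4 had -0.03.

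**Figure D3:**
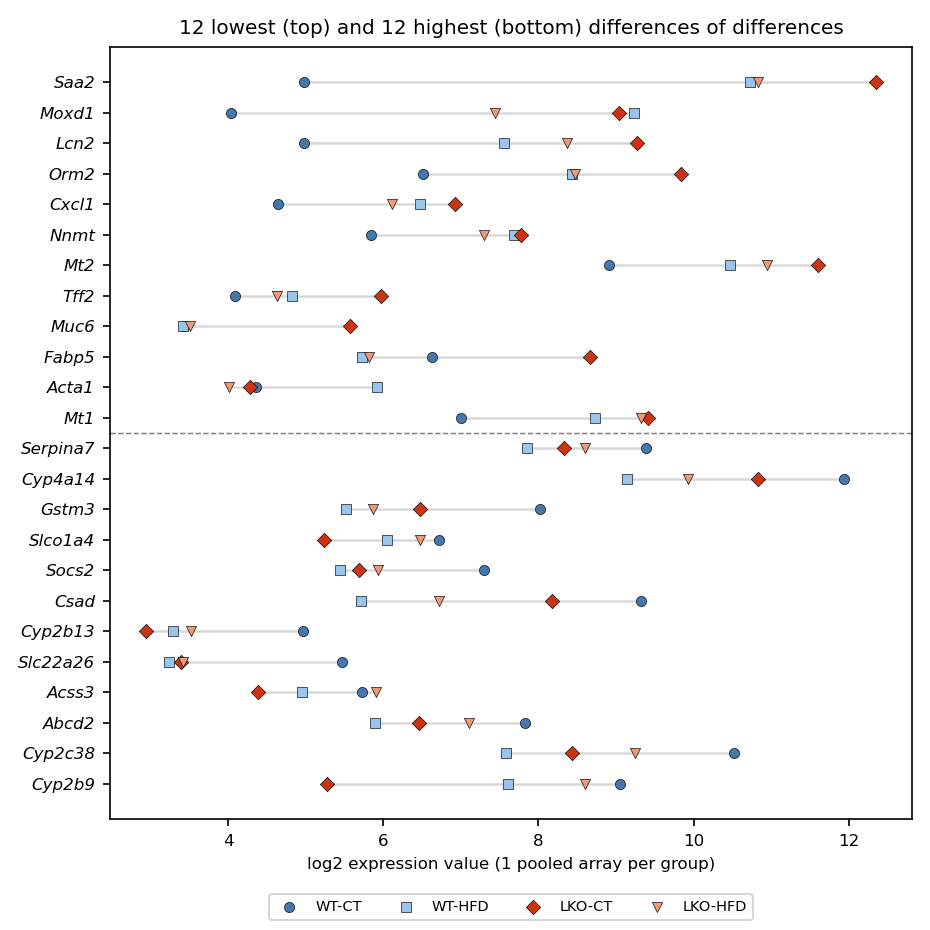
Points give the log2 expression value of the 12 lowest (top) and 12 highest (bottom) genes on each of the 4 arrays, 1 pooled array per group. WT-CT lies at the far left for Saa2 to Mt2 and at the far right for Serpina7, Cyp4a14, Gstm3 and Csad, while LKO-CT lies at the far left for Cyp2b9 at 5.28.

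Cyp2b9 and Cyp2c38, both drug metabolism genes, had the highest values of all named genes. This list had 30 measured Cyp2b, Cyp2c and Cyp3a genes and other targets of the xenobiotic receptors CAR and PXR. Of these 26 were positive, against 55.9% of all genes. At 2-fold or more 7 were positive, against 0.661% of all genes. The median was 0.37. The median diet difference was -0.31 in wild type and 0.17 in the knockout, and the median genotype gap was -0.30 on the control diet and 0.15 on the high-fat diet.

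Cyp2b9, a steroid hydroxylase, read 9.05 on WT-CT, 7.61 on WT-HFD, 5.28 on LKO-CT and 8.60 on LKO-HFD. The knockout on control diet was low and the other 3 arrays lay within 1.44, so the diet difference was -1.44 in wild type and 3.32 in the knockout, for 4.76. Cyp2b13, its neighbour, read 4.97, 3.30, 2.95 and 3.52, with WT-CT high and the rest near the bottom of the scale, for 2.25. It passed the filter on the mean through WT-CT. Cyp2b10, the usual marker of CAR activation, was dim on all arrays at 3.35 to 3.75 and had 0.26. The promoter windows of Cyp2b9 at chr7:26173159-26173458 (+ strand) and Cyp2b13 at chr7:26061245-26061544 (+ strand) are shown because the genes are near copies, and capitals mark the 1 C/EBP-like match in each.
Cyp2b9: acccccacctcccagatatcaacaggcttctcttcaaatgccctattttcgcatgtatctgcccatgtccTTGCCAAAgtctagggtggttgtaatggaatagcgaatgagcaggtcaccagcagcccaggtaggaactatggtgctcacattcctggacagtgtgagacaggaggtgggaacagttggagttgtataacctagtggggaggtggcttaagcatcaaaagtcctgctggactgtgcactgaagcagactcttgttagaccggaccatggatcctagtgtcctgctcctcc
Cyp2b13: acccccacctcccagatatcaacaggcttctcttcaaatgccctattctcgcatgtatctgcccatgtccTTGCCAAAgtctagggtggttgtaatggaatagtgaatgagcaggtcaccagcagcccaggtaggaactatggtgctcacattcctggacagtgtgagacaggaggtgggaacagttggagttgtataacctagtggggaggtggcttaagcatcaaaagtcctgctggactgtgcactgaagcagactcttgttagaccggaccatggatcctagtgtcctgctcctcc
They agreed at 298 of 300 positions without gaps (99.3%). The windows lie mostly before the gene start, so they do not show how alike the probe targets are. Whether the probes of Cyp2b9 and Cyp2b13 read both genes was not tested, so their values are uncertain.

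Cyp2c38, an enzyme that oxidises arachidonic acid, read 10.53 on WT-CT, 7.59 on WT-HFD, 8.43 on LKO-CT and 9.24 on LKO-HFD. Here no array stood apart: the wild-type arrays were the highest and the lowest, with the knockout arrays between, and the difference of differences was 3.75. The 3 Cyp3a genes at 2-fold or more were Cyp3a59, Cyp3a25 and Cyp3a11, drug hydroxylases, with 1.31, 1.29 and 1.14. Cyp3a11, the main PXR target, read 9.66, 8.55, 8.76 and 8.78, with WT-CT high. Slco1a4, an uptake transporter of organic anions, read 6.72, 6.04, 5.24 and 6.47, with LKO-CT low, for 1.91. The receptors themselves had smaller values, 0.39 for Nr1i2 (PXR) and 0.06 for Nr1i3 (CAR).

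Of 40 measured PPARalpha targets and fatty acid oxidation genes, 31 were positive, against 55.9% of all genes, with a median of 0.22. At 2-fold or more 9 were positive, against 0.661% of all genes, and none negative. The 9 were Abcd2, Acss3, Cyp4a14, Acot3, Acot2, Pdk4, Acot1, Ehhadh and Acot4. Abcd2, a peroxisomal importer of very long-chain fatty acids, read 7.83, 5.90, 6.46 and 7.11 in the order WT-CT, WT-HFD, LKO-CT and LKO-HFD, for 2.58. Cyp4a14, the fatty acid omega-hydroxylase, read 11.94, 9.15, 10.84 and 9.92. It was lower with the diet in both genotypes, by more in wild type, for 1.89. Acss3, a mitochondrial short-chain acyl-CoA synthetase, read 5.73, 4.95, 4.39 and 5.90, for 2.30.

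The acyl-CoA thioesterases Acot2, Acot1, Acot4 and Acot3 lie next to each other in the genome and had 1.53, 1.37, 1.11 and 1.81, with Acot4 at 0.66 when all its probe sets were averaged. Acot1 was high on WT-CT only (6.71, 5.30, 5.51 and 5.47), whereas Acot3 was low on LKO-CT only (5.92, 5.33, 4.36 and 5.58). Pdk4, the kinase that switches the cell from glucose to fatty acid use, read 6.78, 5.46, 5.18 and 5.23, with WT-CT high, for 1.37. The receptor Ppara had -0.07, and Cpt1a, which admits long-chain fatty acids to mitochondria, had -0.18. Fgf21, a hormone and PPARalpha target, read 7.32, 5.16, 6.32 and 5.14, just under 2-fold at 0.97. The lipid uptake receptor Cd36 read 8.44, 7.96, 7.78 and 8.68, for 1.38, with the higher value on LKO-HFD.

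Of 21 measured NRF2 and AhR targets and glutathione S-transferases, 14 were positive, against 55.9% of all genes. At 2-fold 1 was positive, and the median was 0.37. Gstm3 read 8.03 on WT-CT, 5.52 on WT-HFD, 6.47 on LKO-CT and 5.86 on LKO-HFD, for 1.89. Gsta4, Hmox1 (heme oxygenase) and Ephx1 (epoxide hydrolase) had 0.92, 0.90 and 0.79, and WT-CT was the high array for each. Fatty acid synthesis genes had smaller values: of 27 measured genes 18 were positive, against 55.9% of all genes. Me1, malic enzyme, at 10.94, 8.81, 10.50 and 9.40 was the only one at 2-fold, for 1.03 (0.98 after cyclic loess). Csad, which makes taurine from cysteine, read 9.32, 5.71, 8.18 and 6.71. It was lower with the diet in both genotypes, with diet differences of -3.61 in wild type and -1.46 in the knockout, for 2.14.

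Genes that growth hormone sets to different levels in male and female mouse liver were on both sides. Of 37 measured genes, 7 were positive at 2-fold or more (against 0.661% of all genes) and 3 negative (against 0.556%). The median was 0.06. Sets of female-biased and male-biased genes were then drawn up after the values were seen, so they support nothing. The 13 measured female-biased genes hold 8 of the 37 and 5 cytochrome P450 genes from outside that list: Cyp2b9, Cyp2b13, Cyp3a44, Cyp2c69 and Cyp2c40. Of the 13, 11 were positive, against 55.9% of all genes, with a median of 0.95. Of the 8 alone, 6 were positive with a median of 0.93. Of 18 measured male-biased genes, all but Cyp4a12b from the 37, 12 were negative, against 44.1% of all genes, with a median of -0.23. Moxd1, a male-biased monooxygenase-like gene, read 4.03 on WT-CT, 9.24 on WT-HFD, 9.04 on LKO-CT and 7.44 on LKO-HFD. WT-CT was low, near the bottom of the scale, and the others were high, for -6.80. Bcl6, the male-biased repressor, read 6.53, 7.70, 7.46 and 7.38, for -1.25.

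WT-CT was the highest array for 10 of the 13 female-biased genes and stood apart as high for 4. Cux2 peaked on WT-HFD instead, Cyp17a1 on LKO-CT, and Slc22a28 was lowest on WT-CT. The set listed 23 genes, and a high WT-CT value also lifts the mean that the filter used. The counts for this set are therefore partly set by the filter. Slc22a26 and Cyp3a44 lay below the filter level of 3.47 on every array but WT-CT, and Cyp2b13 on WT-HFD and LKO-CT. Slc22a26, an organic anion transporter, read 5.47, 3.24, 3.39 and 3.42, with WT-CT high, for 2.27. Cyp2a4, a female-biased steroid hydroxylase, read 9.21, 7.80, 8.12 and 7.87, for 1.16. Socs2, the growth hormone feedback inhibitor and in neither class here, read 7.30, 5.44, 5.68 and 5.93, again with WT-CT high, for 2.10, but a dimmer probe set of Socs2 had 0.08. Abcd2 and Acot3 are also among the 13, so the set is not separate from the lists above. Y-linked genes also varied: Uty read 6.38, 6.63, 6.70 and 7.30 and Kdm5d 4.82, 5.25, 5.36 and 5.67, both lowest on WT-CT and highest on LKO-HFD. Eif2s3y read 7.84, 7.71, 7.67 and 8.23, with LKO-HFD high. The part of the makeup of the pools in the sex-biased genes was not tested.

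**Figure D4:**
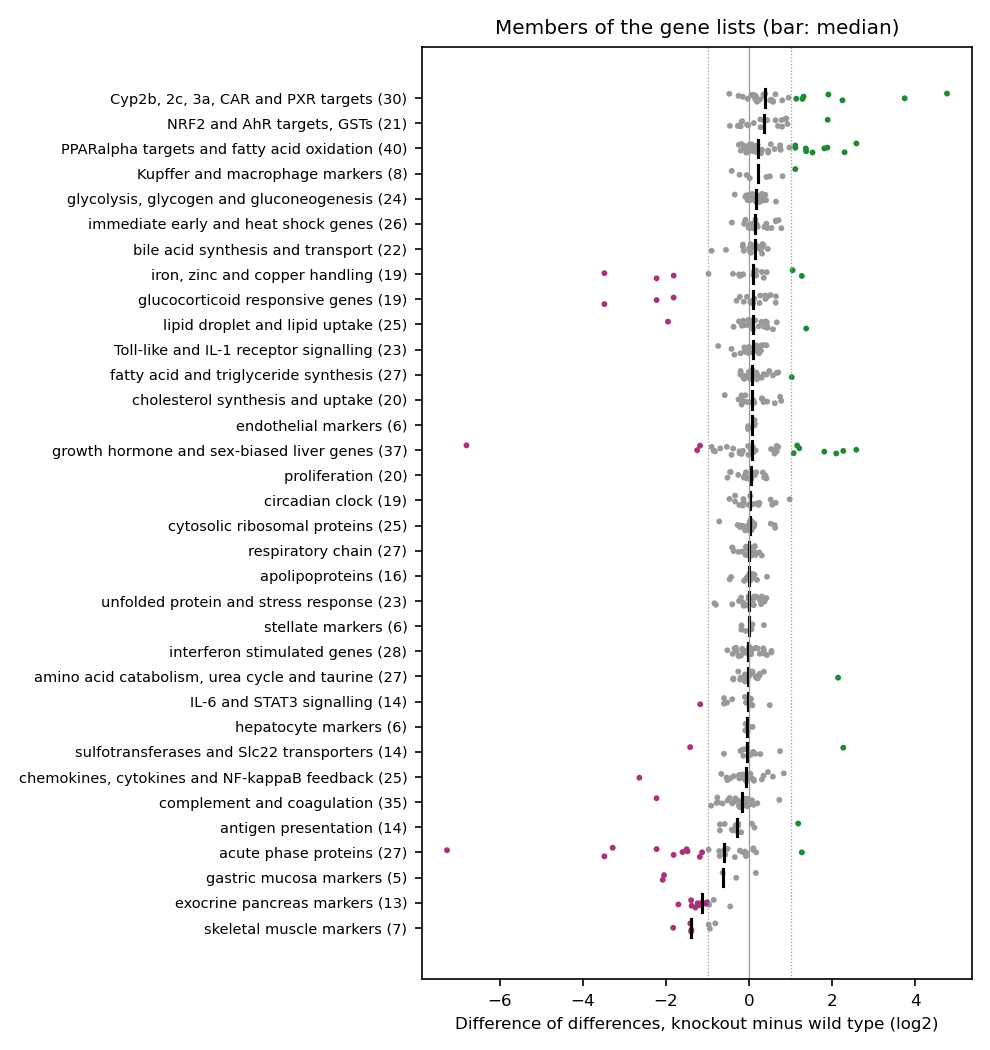
Each point is a measured gene, placed by its difference of differences (log2), in the gene lists with at least 5 measured genes; bars are list medians and dotted lines mark 2-fold. The lowest medians are those of skeletal muscle, exocrine pancreas and gastric markers and the acute phase list (-1.39, -1.13, -0.64 and -0.60), and the highest is that of the CAR and PXR targets at 0.37.

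Transcripts of tissues other than liver made up part of the negative genes. All 13 measured exocrine pancreas markers were negative (against 44.1% of all genes), 9 at 2-fold or more (against 0.556%), with a median of -1.13. Their mean log2 value was 5.22 on WT-CT, 7.35 on WT-HFD, 7.64 on LKO-CT and 8.65 on LKO-HFD. They were higher on the high-fat array in both genotypes, and WT-CT was the low array for 12 of 13. Cpb1, a pancreatic carboxypeptidase, read 6.33, 8.93, 9.16 and 10.06, for -1.70. On a linear scale (2 to the power of the log2 value) the sign turned for 8 of the 9: the knockout arrays differed by more than the wild-type arrays, with Ctrl, a chymotrypsin, at 213 and Cpb1 at 90.2. These 8 were the only ones of the 162 genes whose sign depended on the scale.

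**Figure D5:**
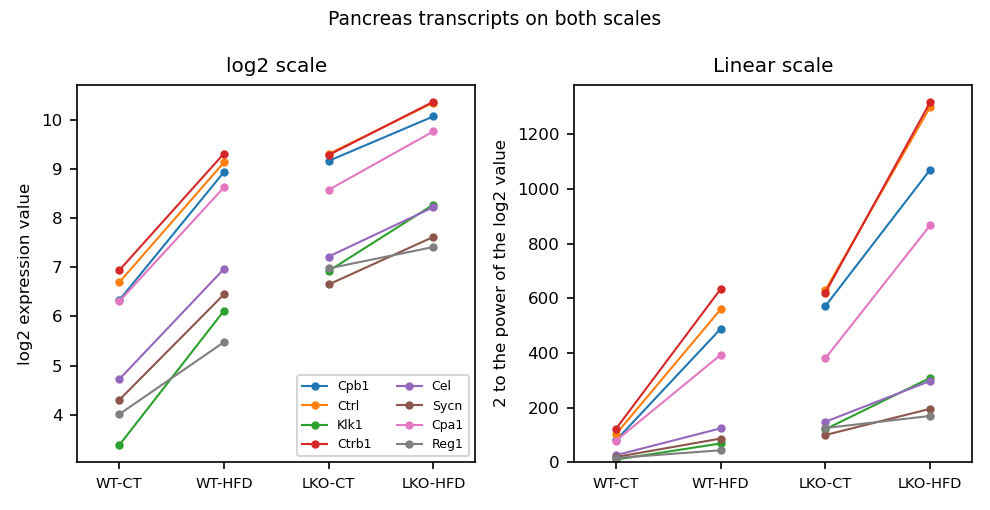
Lines join the control and high-fat arrays of a genotype for 8 pancreas markers, on the log2 scale (left) and on the linear scale (right), 1 pooled array per group. The slope is steeper in wild type on the left and steeper in the knockout on the right, as for Cpb1 with -1.70 on the log2 scale and 90.2 on the linear scale.

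Of 12 listed skeletal muscle markers 7 passed the filter on the mean. All 7 were negative (against 44.1% of all genes), 4 at 2-fold or more (against 0.556%), with a median of -1.39. WT-HFD was the high array for each. Ttn and Atp2a1 lay below the filter level of 3.47 on every array but WT-HFD and passed through that array. The counts for this list are therefore partly set by the filter, and without the filter the median was -0.96. Acta1, skeletal actin, read 4.37, 5.93, 4.28 and 4.02, for -1.83. Of 5 measured gastric mucosa markers, Tff2, a trefoil peptide, and Muc6, a mucin, were high on LKO-CT alone: Muc6 read 3.44, 3.42, 5.57 and 3.51, for -2.05. Muc6 passed the filter on the mean through LKO-CT. These transcripts moved with the same arrays as some of the liver genes, and the part of other tissue in the liver results was not tested. The arrays that stood apart were WT-CT and LKO-CT for most acute phase genes, WT-CT for pancreas markers and WT-HFD for muscle markers. Fabp5, a fatty acid-binding protein, had the Muc6 pattern with 6.63, 5.73, 8.67 and 5.82, for -1.95, and its other 3 probe sets had -1.95, -1.49 and -1.04.

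Markers of the liver's own cell types had these values. The 6 endothelial markers lay between -0.03 and 0.14, the 6 stellate markers between -0.19 and 0.36, and the 6 hepatocyte markers between -0.09 and 0.08. The 8 Kupffer cell and macrophage markers ranged from -0.42 to 1.11 with a median of 0.22, and 5 were positive, against 55.9% of all genes. Their mean log2 value was 7.40 on WT-CT and 7.12, 7.13 and 7.12 on the other arrays, and WT-CT was the high array for Adgre1, Marco and Timd4. The part of this shift in the results set by WT-CT was not tested. Marco, a scavenger receptor, was the only one at 2-fold, reading 6.02, 5.30, 5.22 and 5.61, for 1.11. None of the 7 neutrophil markers passed the filter on level. Of the 26 immediate early and heat shock genes 21 were positive, against 55.9% of all genes, with a median of 0.15 and the highest value at 0.78 for Klf2, an early response transcription factor. The 19 clock genes had a median of 0.03, and Arntl, the core clock activator, read 5.92, 3.95, 5.62 and 4.62, for 0.98. Neither list had a gene at 2-fold or more.

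Other genes among the highest and lowest belonged to none of these groups. Nnmt, which methylates nicotinamide, read 5.84 on WT-CT, 7.69 on WT-HFD, 7.78 on LKO-CT and 7.30 on LKO-HFD, for -2.32, with WT-CT low. Serpina7, the thyroxine-binding globulin, read 9.39, 7.85, 8.33 and 8.60, for 1.82, with WT-CT high. Slc22a7, an organic anion transporter, was high on WT-HFD (6.30, 7.69, 6.88 and 6.85), for -1.42. Rdh16, a retinol dehydrogenase, read 9.26, 8.14, 8.21 and 8.53, for 1.44. The zinc finger genes Zfp955b and Zfp982 stood apart on another array: Zfp955b read 6.43, 5.71, 6.29 and 7.18 and Zfp982 5.34, 5.03, 5.04 and 6.18, both high on LKO-HFD, for 1.62 and 1.45.

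Over the whole set, 17 of the 162 genes lay in 6 runs of measured neighbours of the same sign: the Acot run above, Cyp2b13 to Cyp2a5 with Cyp2b9 and Cyp2a4, Cyp3a11 to Cyp3a59 with Cyp3a25, and the pairs Mt2 with Mt1, Orm3 with Orm2 and Tff3 with Tff2. Each run holds related genes, some of them close copies, so shared probe sequence may add to the likeness and was not tested. Another probe set above the filter was available for 8 of the 162 genes, 10 in all. Of these 9 had the same sign and 3, all of Fabp5, were at 2-fold or more.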

How the data were processed

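The authors deposited log2 expression values per probe set for the 4 arrays. Per the submitters' processing notes they come from RMA (robust multi-array averaging), run with Affymetrix Expression Console. Its version, the probe set library and the genome build were not given in the sources used here. The method normalises by quantiles and compresses differences of dim probe sets. Signal over background is unknown, and batches of slides or scans were not analysed here. The number of arrays limits the precision: residual degrees of freedom are 0, so no test was made.

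Gene names came from the platform annotation: 23521 of 41345 had 1 symbol, 1814 several and 16010 none. The 13308 genes were those at or above the 40th percentile of the mean. Named genes were Myd88, the 20 highest and 20 lowest (predicted and non-coding genes left out), genes at 2-fold or more in opposite directions in both genotypes, and from each list the 5 largest and any at 2-fold; other genes of the lists, Xist, Y-linked genes, Tff3 and Orm1 are given beside them. The members and the 40 gene lists, 39 of them with measured genes, were chosen with earlier results of these data known. Lists overlap and were described by counts and medians, with no set test. The lists that the text does not describe are given in the closing section.

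Values were computed in Python 3.11.15 with pandas 2.3.3 and NumPy 2.4.6, figures with matplotlib 3.10.9, and other scalings with limma 3.58.1 in R 4.3.3. The subtraction was tested on simulated data. Promoter windows and gene order came from RefSeq tables of GRCm38.p6, used for names, gene types, order and sequences only. Alternatives were the scaling, the filter, the probe set per gene, the fold, the rule for a single array, the linear scale, and leaving out other-tissue and small RNA genes. Replacing 1 array at a time by its nearest neighbour was added after the data were seen.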

Additional observations from a re-analysis of the deposited data

Results flagged for a closer look

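In 4 genes the diet difference was 2-fold or more in both genotypes and ran in opposite directions; the difference between the genotypes was not tested, since each group has 1 array. Cyp2b9 was -1.44 in wild type and 3.32 in the knockout, a difference of 4.76. Moxd1 was 5.20 and -1.60, a difference of -6.80. Orm2 was 1.92 and -1.36, a difference of -3.28. Saa2 was 5.76 and -1.52, a difference of -7.27. WT-CT was the low array for Moxd1, Orm2 and Saa2, and LKO-CT was the low array for Cyp2b9.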

How the results depend on the processing

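No paired analysis was possible because each group has 1 array. The counts of 162, 88 and 74 became 1096, 682 and 414 at 1.5-fold and 18, 8 and 10 at 4-fold. With a gap of at least 2 times the range of the other arrays, 48 genes were set by a single array, 21 by WT-CT. WT-CT moved to its nearest neighbour left 107 genes, 46 of them negative, and medians of -0.32 for acute phase, 0.11 for PPARalpha, 0.13 for NRF2 and, reversed, 1.04 for pancreas genes. The same step left 49 negative genes and a muscle median of -0.13 (WT-HFD), an acute phase median of -0.38 (LKO-CT), and 57 positive genes and a pancreas median of -2.19 (LKO-HFD). These follow from the step, which removes the gap of the array that stands apart. Without other-tissue markers and small RNA genes 47 negative genes remained in the count. Without its 9 serum amyloid, orosomucoid, lipocalin and metallothionein genes the acute phase median was -0.28. On the linear scale the sign reversed for Cel (51.1), Cpa1 (172), Cpb1 (90.2), Ctrb1 (184), Ctrl (213), Klk1 (129), Reg1 (15.8) and Sycn (28.3), which read higher in the knockout on each diet. Of 72 named genes at 2-fold or more, none changed sign and 8 (Acot4, Cela3b, Fmo2, H2-Q4, Me1, Oser1, Reg1 and Slc39a4) fell below 2-fold under a scaling or the mean of all probe sets. Of all 201 named genes, 7 smaller ones changed sign there, Myd88 among them.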

Other observations

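The gene lists not described above had small medians. Of 19 measured iron, zinc and copper genes, 10 were positive and 9 negative, with a median of 0.10. At 2-fold or more 3 were negative (against 0.556% of all genes) and 2 positive (against 0.661%). The negative ones were Lcn2, Mt2 and Mt1, already counted in the acute phase list. The positive ones were Hamp2, also in that list, and the zinc importer Slc39a4. Slc39a4 read 7.10, 5.98, 6.53 and 6.46 in the order WT-CT, WT-HFD, LKO-CT and LKO-HFD, for 1.05. Lcn2, Mt2 and Mt1 were also the 3 genes at 2-fold or more among 19 glucocorticoid responsive genes, whose median was 0.10. Of 25 lipid droplet and uptake genes 16 were positive, against 55.9% of all genes, with a median of 0.09. Only Fabp5 and Cd36 reached 2-fold. Of 24 genes of glycolysis, glycogen and gluconeogenesis 18 were positive (median 0.16), as were 17 of 22 bile acid genes (0.14), against 55.9% of all genes. Neither of these lists had a gene at 2-fold. Cyp7b1, the bile acid and oxysterol hydroxylase, had the lowest bile acid value with 10.71, 11.57, 11.57 and 11.53, low on WT-CT, for -0.90.

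The medians were 0.08 for cholesterol synthesis, -0.01 for apolipoproteins and for the unfolded protein response, 0.03 for proliferation and for ribosomal proteins, and 0.00 for the respiratory chain, with no gene at 2-fold in these 6 lists. The amino acid list had -0.03 with Csad at 2-fold, and the sulfotransferase and Slc22 list had -0.06 with Slc22a26 and Slc22a7 at 2-fold. The sparse marker lists had no gene at 2-fold: T and NK cells -0.20 over 3 genes, B and plasma cells 0.00 over 2, cholangiocytes -0.01 over 3, adipose -0.25 over 2 and 1 erythroid gene at -0.11.

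Of the 162 genes at 2-fold or more, 62 were in a list, as were 673 of all 13308 genes. Among the 162, 29 were predicted or non-coding and 15 were small RNAs, 12 of these negative. LKO-HFD was the low array for 8 of the 162 (4.94%, against 7.50% of all genes), 6 of them small RNAs. The shares of predicted genes and small RNAs among all genes were not worked out here, so their counts are description only. Probe sets without a gene symbol, which the report does not use, reached 2-fold more often: 844 of 7133 above the same level (11.8%), against 1.23% of those with 1 symbol and 2.11% of those with several symbols. What these unnamed probe sets measure was not analysed here.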
